A study of Chlorella sp. HS2 with 12 samples.

Results

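Chlorella sp. HS2 is a green microalga whose RNA was sequenced from cultures grown with sea salt and without it, in 2 phases of growth. The genes described here are its antioxidant and thiol redox genes. They were chosen from the annotation of 57640 assembled genes, of which 10377 had a named Swiss-Prot hit with an E-value of at most 1e-10. A gene was taken when the name of its hit held 1 of these words: superoxide dismutase, catalase, peroxidase, peroxiredoxin, thioredoxin, glutaredoxin, glutathione, dehydroascorbate, monodehydroascorbate, methionine sulfoxide or glutamate--cysteine ligase. Of 112 such genes, 63 reached a summed count of 15 in the 6 marine libraries and again in the 6 freshwater libraries, and these are the members. A further 44 reached that count in freshwater medium only, 3 in marine medium only and 2 in neither. The rule therefore used counts by medium and left out genes seen in 1 medium, so that counts of members called between media are given as a description. It did not use growth phase, but a gene could meet the limit of a medium through the libraries of 1 phase.

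The study had 4 groups of 3 libraries, which the labels call biological replicates without naming separate cultures. Marine exponential and marine stationary cultures grew in inorganic medium with 3% (w/v) sea salt and were sampled on day 4 and day 6 after inoculation. Freshwater exponential and freshwater stationary cultures grew in inorganic medium without that salt and were sampled on the same days. All cultures grew autotrophically in cylindrical photobioreactors with added CO2, and all groups were of the same strain. Messenger RNA was selected by poly(A), and the libraries kept no strand information. Because the samples are bulk cultures, a lower value can stand for fewer cells that make an RNA or for less of it per cell, and these cannot be told apart.

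Photosynthesis and respiration leak electrons to oxygen and give superoxide, which superoxide dismutases turn into hydrogen peroxide. Catalases, ascorbate peroxidases, glutathione peroxidases and peroxiredoxins remove the peroxide, and monodehydroascorbate reductase and glutathione reductase return the spent ascorbate and glutathione to their reduced forms with electrons from NAD(P)H. Thioredoxins and glutaredoxins reduce disulfides and glutathionylated proteins. In plastids the thioredoxins draw their electrons from ferredoxin or NADPH, and glutaredoxins are reduced by glutathione.

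Depth was between 9378066 and 11280635 assigned read pairs a library, and members took between 0.407 and 0.913% of them. A list of 58 algal photosynthesis genes held 0.415 to 0.877% of counts in the 6 marine and 3 freshwater stationary libraries and 9.95 to 11.8% in freshwater exponential libraries. Bacterial markers (22 genes) stayed at or below 0.0126%, animal markers (30 genes) at or below 0.0122% and fungal-hit markers (2 genes) at or below 0.0626% in every library. The fungal-hit markers differed by medium, at 0.0576 to 0.0626% in marine and 0.0179 to 0.0206% in freshwater exponential libraries. In stationary phase they were at 0.0284 to 0.0351% in marine and 0.00855 to 0.00981% in freshwater libraries. All 3 marine exponential libraries carry 1 library code stem and marine stationary replicates 1 and 2 carry another, so these libraries may come from 1 culture each. Over members, the median absolute log2 difference between replicates was 0.064 to 0.078 in marine exponential libraries and 0.061 between marine stationary 1 and 2. It was 0.372 to 0.38 between those and marine stationary 3, 0.255 to 0.312 in freshwater exponential libraries and 0.204 to 0.271 in freshwater stationary libraries.

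By best hit, 37 members matched green plants or algae, 16 animals, 5 bacteria, 3 fungi and 2 other eukaryotes. The deposited sequences of the members were 215 to 14767 bases long, with a median of 2899. Of the 37 members with a transcript hit, 14 had hits to 2 or more different Swiss-Prot entries. For some of the 14 the entries were the same enzyme from different species. Where they were different enzymes, the counts may hold reads of more than 1 gene. The same holds for members whose sequence also carried domains of other protein families. The 7 members under 500 bases had 6 human best hits among them. In 6 of them the 3 highest libraries held 84.6 to 100% of the CPM, and the thioredoxin-interacting protein-hit gene DN44158_c0_g1 was above 0 in 9 libraries, at up to 2.1 CPM. Their summed level was 399 CPM (counts relative to library size, scaled between libraries by trimmed mean of M values) in freshwater exponential replicate 3, beside 23.1 and 1.09 CPM in the other 2 of that group. The member nearest the count limit was a thioredoxin reductase-hit gene, DN6857_c0_g1, with 63.7 counts in marine and 19.1 in freshwater medium (identifiers are given without their shared first part, TRINITY_). The nearest gene outside it was a mitochondrial glutathione reductase-hit gene, DN32189_c0_g1, with 12.3 and 22.3 counts.

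Of the 63 members, 60 had enough counts to be tested with edgeR's quasi-likelihood test over 31491 genes, and a member was called when its Benjamini-Hochberg adjusted p was under 0.05. The 49 members whose log2 CPM averaged 3 or more, called well expressed below, had at least 491 counts in marine and 315 in freshwater medium, far from the limit of the rule. The median of mean log2 CPM was 5.68 over tested members and 1.16 over all tested genes, and higher counts make a call easier.

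With sea salt in exponential phase, 14 tested members were higher and 16 lower than in freshwater. Over all tested genes the share called was 20.1%, with 9.3% higher and 10.8% lower. Over 3694 well expressed genes with a named hit and 15 counts in each medium it was 53.7%, and 30 of the 49 well expressed members were called. In stationary phase, 18 members were higher and 16 lower. The share called was 26.3% over all tested genes, with 9.02% higher and 17.3% lower, and 52.0% over well expressed genes, where 32 of 49 members were called. The median log2 fold change of tested members was -0.14 in exponential and 0.19 in stationary phase, beside 0.00 and 0.23 over all tested genes. Scaling by library totals alone moved the median of all genes by 0.60 and 0.58, and the members then split into 24 higher and 7 lower in exponential phase and 28 higher and 7 lower in stationary phase. With libraries of a shared code stem summed, which leaves fewer samples, 7 and 11 of these calls were kept, at adjusted p up to 0.0482. The 7 in exponential phase were monodehydroascorbate reductase DN1476_c0_g1, glutathione reductase DN959_c0_g1, the glutathione peroxidase 2-hit gene DN33_c1_g1, glutathione hydrolase DN729_c0_g2, peroxiredoxin-5-hit DN2777_c0_g1, dismutase DN816_c0_g1 and thioredoxin-like 4A-hit DN2292_c0_g1. The 11 in stationary phase were the first 5 of these, DN2292_c0_g1, glutathione peroxidase 7-hit DN108_c0_g1, glutaredoxin DN1070_c0_g1, glutathione S-transferase DN1522_c0_g3, HCF164-hit DN1818_c0_g1 and ferredoxin-thioredoxin reductase DN3845_c0_g1. Every other salt call of a member was lost in that fit, and p-values printed with n = 3 take the libraries as separate samples. The authors' deposited table lists 13 members higher and 21 lower in exponential phase and 13 higher and 23 lower in stationary phase at an adjusted p under 0.05, with 28 and 29 called in both analyses in the same direction. Across both phases, 10 members were higher with salt, 7 were lower, 3 were called in opposite directions, 10 in exponential phase only and 14 in stationary phase only.

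**Figure D1:**
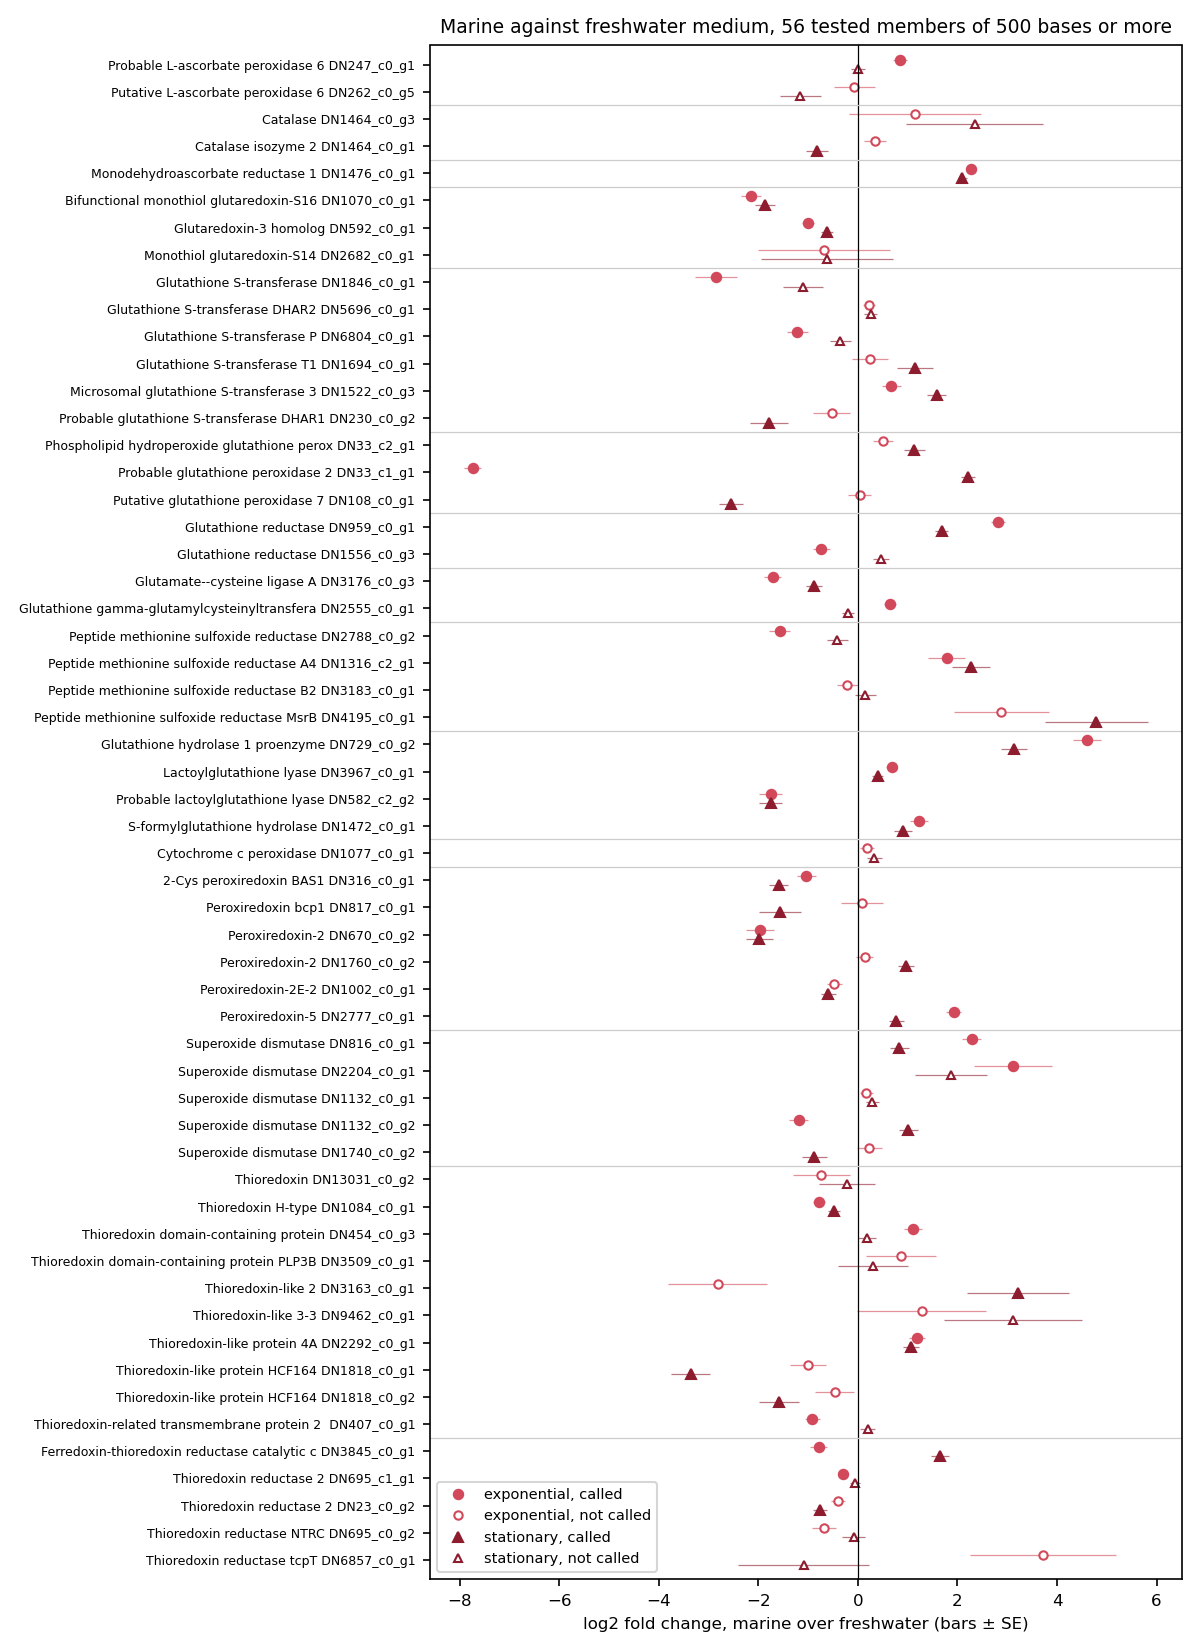
Log2 fold change of marine over freshwater medium with its standard error for the 56 tested members of 500 bases or more, with circles for exponential and triangles for stationary phase and filled symbols where the member was called. Grey lines part the roles, and the glutathione peroxidase 2-hit gene stands far to the left in exponential phase at -7.74 and on the other side in stationary phase at 2.21.

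Monodehydroascorbate reductase and glutathione reductase recycle ascorbate and glutathione. A gene with a hit to the first and 1 of 2 with a hit to the second were higher with salt in both phases. Monodehydroascorbate reductase, which reduces the ascorbate radical, was represented by DN1476_c0_g1, with a hit to a peroxisomal rice enzyme. It had 465, 462 and 456 CPM in marine exponential libraries, against 89.1, 102 and 95.3 CPM in freshwater exponential ones. In stationary phase it had 462, 461 and 482 CPM in marine libraries, against 102, 109 and 115 CPM in freshwater libraries. Neither pair of groups overlapped, and the log2 fold change was 2.27 ± 0.09 (SE, n = 3 a group, edgeR adjusted p = 2.71e-07) in exponential and 2.10 ± 0.09 (adjusted p = 8.84e-07) in stationary phase. The gene differed little between phases, with log2 changes of 0.02 in marine and 0.19 in freshwater medium that were not called.

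Glutathione reductase, which uses NADPH to reduce oxidised glutathione, had 2 members with different values. DN959_c0_g1 had 530, 527 and 538 CPM in marine exponential libraries, against 85.7, 76.4 and 63.8 CPM in freshwater exponential libraries. Its marine stationary values were 341, 333 and 408 CPM, against 116, 98.9 and 122 CPM in freshwater stationary libraries. The groups did not overlap in either phase, and it was higher with salt by 2.82 ± 0.14 (adjusted p = 7.49e-07) and 1.68 ± 0.14 on the log2 scale (adjusted p = 1.81e-05, edgeR). Its sequence of 8265 bases also had a transcript hit to another protein, human ERI2. The counts of DN959_c0_g1 may include reads of that gene. The other member, DN1556_c0_g3, fell in exponential phase, with a log2 fold change of -0.73 (edgeR adjusted p = 0.011), a call not kept under scaling by library totals, and had 0.47 in stationary phase, which was not called. DN1556_c0_g3 averaged 19.5 ± 1.98 CPM in marine exponential libraries and 32.4 ± 3.68 CPM in freshwater exponential libraries (SD, n = 3 each).

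Superoxide dismutase had 5 members, each with a best hit to an enzyme of the manganese or iron type. With salt, 2 were higher and 1 lower in each phase, or 4 higher and 0 lower in each phase under scaling by library totals. Among all tested genes 20.1 and 26.3% were called in exponential and stationary phase, and among the well expressed ones 53.7 and 52.0%. The manganese-type DN816_c0_g1 had 169, 171 and 165 CPM in marine exponential libraries, against 24.8, 37.5 and 40.9 CPM in freshwater exponential libraries. In stationary phase it had 128, 132 and 154 CPM in marine libraries and 69.5, 93.4 and 69.1 CPM in freshwater ones. Marine values lay above freshwater values in both phases, with log2 fold changes of 2.29 ± 0.20 (edgeR adjusted p = 2.04e-05) and 0.83 ± 0.19 (adjusted p = 0.0105). The stationary call was lost without freshwater stationary replicate 1 (edgeR adjusted p = 0.0589). The deposited sequence of 12731 bases also carried Pex24p and Vps62 domains, so the counts of DN816_c0_g1 may include reads of other genes.

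The iron-type DN1132_c0_g2, whose annotated transcripts matched a tobacco-genus iron enzyme over 201 residues at 63.4% identity, moved in opposite directions in the 2 phases. It had 83.1, 71.2 and 83.7 CPM in marine exponential libraries, against 226, 184 and 134 CPM in freshwater exponential libraries. It had 96.9, 93.0 and 74.6 CPM in marine stationary libraries, against 39.5, 39.3 and 52.0 CPM in freshwater stationary libraries. Neither pair overlapped, with log2 fold changes of -1.19 ± 0.20 (edgeR adjusted p = 0.00174, or 0.106 with a log2 fold change of -0.56 under scaling by library totals) and 1.01 ± 0.20 (adjusted p = 0.00479). The difference between these effects was 2.21 ± 0.28 (edgeR adjusted p = 0.00109). On its 7922 bases DN1132_c0_g2 also carried DUF155, NUP50 and TPR_16 domains, and its counts may include reads of other genes. A second gene of the same assembly component, DN1132_c0_g1, which may be a copy or a fragment of the same locus, was not called in any comparison and averaged 107 ± 2.96 CPM in marine exponential and 95.4 ± 19.1 CPM in freshwater exponential libraries.

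DN2204_c0_g1, a dismutase with a bacterial best hit, had 44, 45.5 and 47.4 CPM in marine exponential libraries, against 3.14, 6.00 and 6.62 CPM in freshwater exponential libraries. Its log2 fold change of 3.12 ± 0.78 (edgeR adjusted p = 0.0176) rested on few libraries: without any 1 of the 6 exponential libraries the adjusted p was as high as 0.101. One library stood apart in stationary phase, where marine replicate 3 held 371 CPM and the other 2 held 46.4 and 45.2 CPM, against 28.4, 48.7 and 49.6 CPM in freshwater. DN1740_c0_g2 had only a few transcripts that matched a dismutase, and most matched a carotenoid oxygenase, so its counts cannot be assigned to the dismutase. It had a log2 fold change of -0.87 in stationary phase (edgeR adjusted p = 0.0323), which was lost without any 1 of 10 libraries (adjusted p up to 0.143).

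Catalase, which splits hydrogen peroxide without a reductant, had its highest mean in freshwater stationary libraries. DN1464_c0_g1, with hits to several plant catalases and to a tRNA methyltransferase, had 263, 260 and 419 CPM in marine stationary libraries, against 595, 575 and 491 CPM in freshwater stationary libraries. In exponential phase it had 380, 382 and 361 CPM in marine libraries, against 303, 367 and 218 CPM in freshwater libraries. The stationary groups did not overlap and the exponential ones did, with log2 fold changes of -0.82 ± 0.22 (edgeR adjusted p = 0.023) and 0.34 ± 0.22 (not called). The stationary call was lost without any 1 of 8 libraries, namely the 3 marine exponential ones, marine stationary 1 or 2 and the 3 freshwater stationary ones (adjusted p up to 0.114). DN1464_c0_g3, a catalase-hit gene of the same component, stayed at or below 17.9 CPM and was not called.

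Ascorbate peroxidase, which reduces hydrogen peroxide with ascorbate, had 2 members. DN247_c0_g1 averaged 313 ± 44.4 CPM in marine exponential and 174 ± 16.0 CPM in freshwater exponential libraries, with 294 ± 34.5 CPM in marine stationary and 293 ± 16.9 CPM in freshwater stationary libraries (SD, n = 3 each). Its exponential log2 fold change of 0.84 (edgeR adjusted p = 0.00139) was lost without marine exponential 1 or 2 or any freshwater exponential library (adjusted p up to 0.132). Most of its transcripts matched the small subunit of carbamoyl-phosphate synthase, an enzyme of arginine and pyrimidine synthesis, so its counts cannot be assigned to the peroxidase. The other, DN262_c0_g5, was not called in any comparison. Cytochrome c peroxidase, a mitochondrial peroxidase known from yeast, was represented by DN1077_c0_g1. It averaged 468 ± 1.79 CPM in marine exponential, 411 ± 47.7 CPM in freshwater exponential, 540 ± 77.5 CPM in marine stationary and 430 ± 66.0 CPM in freshwater stationary libraries, and was not called in any comparison.

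The glutathione peroxidase 2-hit gene DN33_c1_g1 had the widest range of all members. It had 33.0, 32.1 and 31.6 CPM in marine exponential libraries, against 6800, 7467 and 6371 CPM in freshwater exponential libraries. In stationary phase it had 118, 122 and 130 CPM in marine libraries and 31.5, 24.5 and 23.9 CPM in freshwater libraries. Freshwater exponential libraries thus stood far above the other 3 groups, and marine stationary libraries above the remaining 2. The log2 fold change of marine over freshwater was -7.74 ± 0.17 in exponential phase (edgeR adjusted p = 1.19e-08) and 2.21 ± 0.13 in stationary phase (adjusted p = 3.24e-06). The authors' deposited table lists -7.85 and 1.81 for the same 2 contrasts. The gene alone took 0.472 to 0.544% of all counts in freshwater exponential libraries and 58.5% of the members' CPM there.

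What this gene encodes is uncertain. In the annotated transcripts, the match to the Arabidopsis glutathione peroxidase covered 58 residues at 63.8% identity, on a deposited sequence of 2920 bases, so most of the contig lay outside the match. Its neighbour in the same assembly component, DN33_c1_g2, matched a cyanobacterial hydroperoxy fatty acid reductase of the glutathione peroxidase family, which the name rule did not take. DN33_c1_g2 had 6.10, 6.07 and 7.26 CPM in marine exponential and 2.35, 1.64 and 2.88 CPM in freshwater exponential libraries, opposite in order to DN33_c1_g1, with a log2 fold change of 1.5 ± 0.53 that was not called (edgeR adjusted p = 0.0768). The algal photosynthesis list moved with DN33_c1_g1, being near 10% of counts only in freshwater exponential libraries, and its part in the result was not tested.

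The other 2 glutathione peroxidase members followed other patterns. DN108_c0_g1, with a hit to the plastid enzyme GPX7, had 33.5, 36.2 and 54.2 CPM in marine stationary libraries, against 197, 245 and 284 CPM in freshwater stationary libraries. In exponential phase it had 66.9, 66.7 and 63.7 CPM in marine and 56.7, 84.5 and 51.0 CPM in freshwater libraries. Freshwater stationary libraries alone were high, with a stationary log2 fold change of -2.55 ± 0.24 (edgeR adjusted p = 5.53e-05) against 0.04 in exponential phase, and a difference of -2.59 ± 0.33 (adjusted p = 0.00113). The GPX7 match covered 137 residues at 51.1% identity on a deposited sequence of 12821 bases. That sequence also carried F-box, LRR and PAN_4 domains, so the counts of DN108_c0_g1 may include reads of other genes. DN33_c2_g1, a phospholipid hydroperoxide glutathione peroxidase-hit gene, rose in stationary phase, with 62.8 ± 9.41 CPM in marine and 28.6 ± 9.27 CPM in freshwater libraries and a log2 fold change of 1.13 (edgeR adjusted p = 0.00357).

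**Figure D2:**
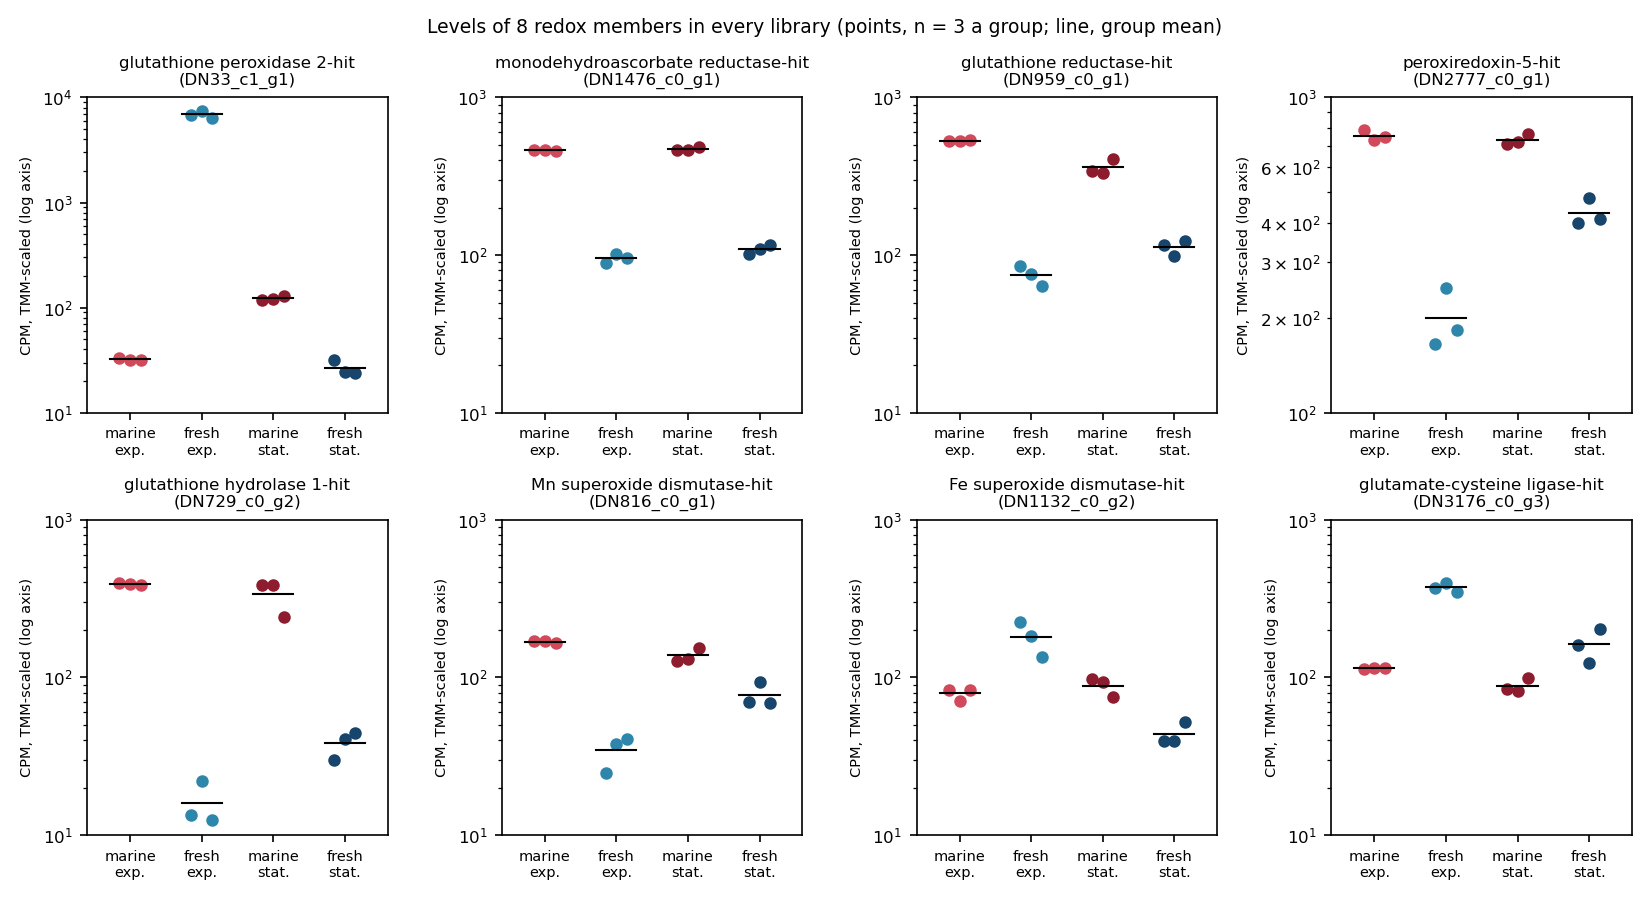
CPM in each of the 12 libraries on log axes for 8 members, with marine and freshwater groups of each phase side by side, points for libraries and a line for the mean of 3. Monodehydroascorbate reductase, glutathione reductase, peroxiredoxin-5 and glutathione hydrolase 1 are high in both marine groups, and the glutathione peroxidase 2-hit gene is high in freshwater exponential libraries, between 6371 and 7467 CPM.

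Peroxiredoxins are thiol peroxidases that take electrons mostly from thioredoxin. All 6 members with such a hit were called in stationary phase, 2 higher and 4 lower with salt. In that phase 26.3% of all tested genes and 52.0% of the well expressed ones were called. In exponential phase 1 was higher and 2 were lower, beside 20.1% and 53.7% called in the same sets of genes. Under scaling by library totals there were 2 higher and 2 lower calls in stationary phase and 2 higher and 1 lower in exponential phase. The most abundant, DN2777_c0_g1, had a best hit to the mammalian atypical enzyme peroxiredoxin-5. It had 786, 734 and 749 CPM in marine exponential libraries, against 165, 249 and 183 CPM in freshwater exponential libraries, and 710, 724 and 764 CPM in marine stationary libraries, against 398, 479 and 411 CPM in freshwater stationary libraries. No marine value reached down to a freshwater value, and the log2 fold changes were 1.92 ± 0.15 (edgeR adjusted p = 1.19e-05) and 0.77 ± 0.15 (adjusted p = 0.00432). Per kilobase of its 1379-base sequence it averaged 384 CPM over the 12 libraries, second among members to DN33_c1_g1 at 605 CPM per kilobase.

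The lower members included 2 with hits to typical 2-Cys peroxiredoxins. DN316_c0_g1, with a hit to the plastid enzyme BAS1, averaged 53.8 ± 3.24 CPM in marine exponential against 110 ± 33.3 CPM in freshwater exponential libraries, and 55.5 ± 2.05 CPM in marine stationary against 168 ± 12.5 CPM in freshwater stationary libraries. DN670_c0_g2, with a hit to peroxiredoxin-2, averaged 96.2 ± 1.05 CPM in marine exponential and 376 ± 59.3 CPM in freshwater exponential libraries, with 74.7 ± 2.7 CPM in marine stationary and 294 ± 122 CPM in freshwater stationary libraries. Both fell in both phases, by 1.03 and 1.59 on the log2 scale for DN316_c0_g1 and by 1.97 and 1.98 for DN670_c0_g2 (edgeR adjusted p between 0.000214 and 0.0029). The exponential call of DN316_c0_g1 was not kept under scaling by library totals (adjusted p = 0.145). DN1760_c0_g2, also with a hit to peroxiredoxin-2, rose in stationary phase by 0.97 (adjusted p = 0.00239) and was at 0.14 in exponential phase. The remaining pair, DN817_c0_g1 and DN1002_c0_g1, fell in stationary phase with adjusted p of 0.025 and 0.0187, calls lost without any 1 of 10 and of 7 libraries (edgeR adjusted p up to 0.142 and 0.106). Transcripts of DN1002_c0_g1 also had hits to other proteins (FHIT, METL and VPS2C entries), and DN670_c0_g2 carried F-box and TerD domains. The counts of both may include reads of other genes.

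**Figure D3:**
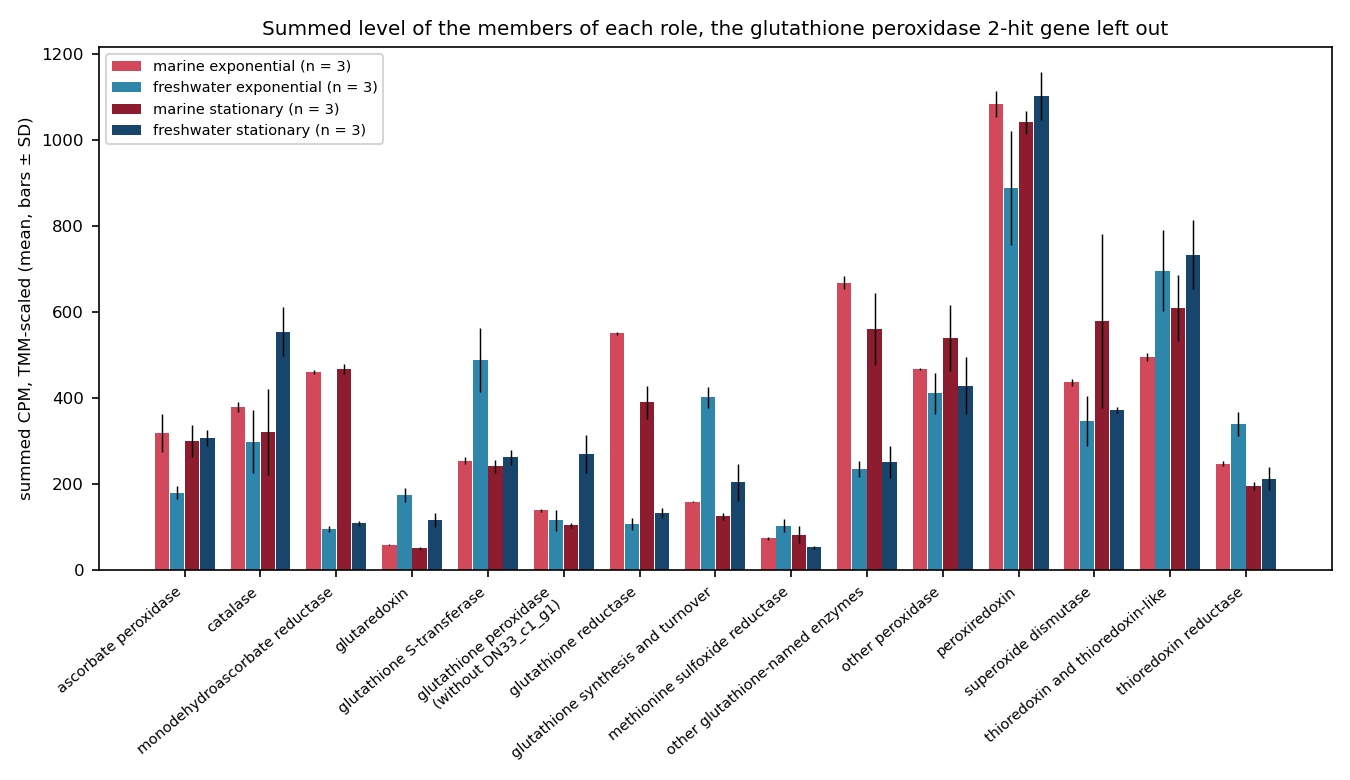
Summed CPM of the members of each role by group, as means with SD over 3 libraries, with the glutathione peroxidase 2-hit gene left out of its role. Heights compare groups within a role, not roles, since sums are not divided by length. Glutathione hydrolase DN729_c0_g2 is summed with the other glutathione-named enzymes and not with glutathione synthesis and turnover. Peroxiredoxins sum to 1084 CPM in marine exponential and 888 CPM in freshwater exponential libraries, and the glutathione reductase and monodehydroascorbate reductase bars are high in both marine groups.

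Glutathione is made from cysteine and glutamate, and glutamate--cysteine ligase catalyses the first and limiting step. Its member DN3176_c0_g3 had 113, 114 and 115 CPM in marine exponential libraries, against 371, 398 and 350 CPM in freshwater exponential libraries. It had 84.7, 82.1 and 99.1 CPM in marine stationary libraries, against 162, 122 and 204 CPM in freshwater stationary libraries. With salt it fell in both phases without overlap, by 1.71 ± 0.17 (edgeR adjusted p = 4.94e-05) and 0.87 ± 0.16 on the log2 scale (adjusted p = 0.00377), but the stationary call was not kept under scaling by library totals. One of its transcripts matched the photosystem subunit PsaN, and its counts may include reads of that gene. Phytochelatin synthase, which joins glutathione into metal-binding peptides, was represented by DN2555_c0_g1, which rose by 0.65 in exponential phase (adjusted p = 0.00284), a call lost without any 1 of 8 libraries (edgeR adjusted p up to 0.268) and with its component summed (adjusted p = 0.078).

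Glutathione hydrolase 1, the gamma-glutamyltransferase that starts the breakdown of glutathione outside the cytosol, had the highest fold change among members in exponential phase. DN729_c0_g2 had 397, 389 and 386 CPM in marine exponential libraries, against 13.5, 22.1 and 12.5 CPM in freshwater exponential libraries. It had 384, 383 and 241 CPM in marine stationary libraries, against 29.7, 40.8 and 44.2 CPM in freshwater stationary libraries. The groups were far apart in both phases, with log2 fold changes of 4.61 ± 0.29 (edgeR adjusted p = 2.44e-06) and 3.14 ± 0.27 (adjusted p = 2.52e-05). Most of its annotated transcripts matched a bacterial aliphatic amidase instead, over up to 321 residues at 57.0% identity in the longest match, while the match to the plant glutathione hydrolase covered 546 residues at 39.4% identity. Which of the 2 coding stretches carried the reads cannot be told from gene counts.

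Among enzymes that use glutathione against reactive aldehydes, S-formylglutathione hydrolase-hit DN1472_c0_g1, of the formaldehyde route, rose by 1.23 (edgeR adjusted p = 0.000714) and 0.91 (adjusted p = 0.00469). These calls were lost without marine exponential 2 (adjusted p = 0.0557) and without marine stationary 2 (adjusted p = 0.0517). The 2 longer lactoylglutathione lyases, which detoxify methylglyoxal, differed. DN582_c2_g2, with a plastid enzyme as its hit, fell by 1.75 in both phases (edgeR adjusted p = 0.00041 and 0.000445), with 18.2 ± 2.12 CPM in marine exponential and 61.2 ± 5.49 CPM in freshwater exponential libraries. Summed over its assembly component it was at -0.50 and -0.34 and not called. DN3967_c0_g1 rose by 0.68 and 0.40, but both calls were lost without any 1 of 7 and of 8 libraries (edgeR adjusted p up to 0.202 and 0.114).

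Of the 8 glutathione S-transferases, which join glutathione to other molecules, 6 were tested. With salt, 1 was higher and 2 were lower in exponential phase, and 2 were higher and 1 was lower in stationary phase. The shares called were 20.1 and 26.3% over all tested genes and 53.7 and 52.0% over the well expressed ones. Under scaling by library totals the calls were 2 higher and 1 lower in exponential phase and 3 higher and 1 lower in stationary phase. DN1846_c0_g1 had 21.2, 21.1 and 25.4 CPM in marine exponential libraries, against 254, 170 and 63.8 CPM in freshwater exponential libraries. The freshwater values were spread over a wide range but stayed above the marine ones (log2 fold change -2.85 ± 0.42, edgeR adjusted p = 0.000815). A second fall was in DN6804_c0_g1, with 43.3 ± 1.70 CPM in marine exponential and 100 ± 29.0 CPM in freshwater exponential libraries (log2 fold change -1.21, edgeR adjusted p = 0.00251, or 0.0818 under scaling by library totals). DN1694_c0_g1 rose by 1.15 in stationary phase (adjusted p = 0.0414), a call lost without any 1 of 10 libraries (edgeR adjusted p up to 0.159). DN1522_c0_g3, a microsomal enzyme by its hit, had 50.9, 51.2 and 51.1 CPM in marine stationary libraries, against 16.7, 17.7 and 16.8 CPM in freshwater stationary libraries. It rose there by 1.58 (adjusted p = 0.000285), but summed over its component it was at 0.08 and not called. Of the 2 members named for dehydroascorbate reductase, DN5696_c0_g1 (DHAR2) was not called in any comparison, and DN230_c0_g2 (DHAR1) fell in stationary phase by 1.78 (edgeR adjusted p = 0.00867), a call lost without marine stationary 1 or 2 (adjusted p up to 0.0588).

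All 3 glutaredoxins, small oxidoreductases reduced by glutathione, had negative log2 fold changes with salt in both phases, and 2 were called in each, or 1 in each under scaling by library totals. Over all tested genes 20.1% were called in exponential and 26.3% in stationary phase, and 53.7 and 52.0% over the well expressed ones. DN1070_c0_g1, with a hit to the plastid monothiol glutaredoxin-S16, had 24.7, 24.2 and 21.1 CPM in marine exponential libraries, against 108, 108 and 92.9 CPM in freshwater exponential libraries. In stationary phase it had 18.9, 22.1 and 14.6 CPM in marine libraries and 61.8, 54.2 and 85.0 CPM in freshwater libraries. The log2 fold changes were -2.14 ± 0.20 (edgeR adjusted p = 3.89e-05) and -1.86 ± 0.20 (adjusted p = 0.000115), with no overlap of groups. DN592_c0_g1 fell by 1.00 in exponential phase (edgeR adjusted p = 0.000203, or 0.117 under scaling by library totals) and by 0.62 in stationary phase, the second call being lost without any 1 of 6 libraries (edgeR adjusted p up to 0.0815).

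Thioredoxins and thioredoxin-like proteins were the largest role with 13 members. With salt, 2 were higher and 2 lower in exponential phase, and 2 higher and 3 lower in stationary phase. These calls were 30.8 and 38.5% of the role, beside 20.1 and 26.3% of all tested genes and 53.7 and 52.0% of the well expressed ones. Scaling by library totals gave 2 higher and 0 lower in exponential phase and 4 higher and 1 lower in stationary phase. The 2 thioredoxin-like HCF164-hit genes shared a component and may be parts of 1 locus. HCF164 is a thylakoid protein that carries reducing power into the lumen for assembly of cytochrome b6f. DN1818_c0_g1 had 5.35, 12.8 and 9.65 CPM in marine stationary libraries, against 86.8, 110 and 87.0 CPM in freshwater stationary libraries. Its log2 fold change was -3.35 ± 0.39 (edgeR adjusted p = 0.000199), and the 2 genes summed fell by 2.27 (adjusted p = 8.06e-06). In exponential phase it had 9.67, 20.1 and 26.4 CPM in marine and 37.4, 37.8 and 37.3 CPM in freshwater libraries, without overlap but not called.

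Thioredoxin-like protein 4A-hit DN2292_c0_g1, a homologue of a splicing factor with a thioredoxin fold, rose by 1.19 in exponential phase (edgeR adjusted p = 0.000385) and by 1.07 in stationary phase (adjusted p = 0.000854). It averaged 174 ± 3.59 CPM in marine exponential and 75.9 ± 10.5 CPM in freshwater exponential libraries. Thioredoxin H-type DN1084_c0_g1, the most abundant thioredoxin per length among members of 500 bases or more at 124 CPM per kilobase, averaged 185 ± 15 CPM in marine exponential and 318 ± 36.2 CPM in freshwater exponential libraries. It fell by 0.78 in exponential phase (adjusted p = 0.00104, or 0.442 under scaling by library totals) and by 0.49 in stationary phase, the second call being lost without any 1 of 9 libraries (edgeR adjusted p up to 0.179).

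Electrons reach thioredoxins through 2 kinds of reductase. The catalytic chain of ferredoxin-thioredoxin reductase, which links plastid thioredoxins to light-driven electron transport, was represented by DN3845_c0_g1. It had 33.5, 32.0 and 32.9 CPM in marine exponential libraries, against 68.4, 52.1 and 49.2 CPM in freshwater exponential libraries. In stationary phase it had 41.1, 39.5 and 31.5 CPM in marine libraries and 11.9, 10.3 and 13.7 CPM in freshwater libraries. The order of the media was reversed between the phases, with log2 fold changes of -0.79 ± 0.17 (edgeR adjusted p = 0.00963, not kept under scaling by library totals) and 1.65 ± 0.18 (adjusted p = 0.000122), and a difference of 2.43 ± 0.25 (adjusted p = 0.000296). Among NADPH-dependent thioredoxin reductases, DN23_c0_g2 fell in stationary phase by 0.76 (edgeR adjusted p = 0.0042), a call not kept under scaling by library totals. DN695_c1_g1 was called at -0.30 in exponential phase and was called in the opposite direction, at 0.33, under scaling by library totals. NTRC-hit DN695_c0_g2, a plastid enzyme with its own thioredoxin domain in plants, was not called in any comparison.

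Methionine sulfoxide reductases, which repair oxidised methionine in proteins, had 4 members. DN2788_c0_g2 had 26.6, 22.9 and 26.8 CPM in marine exponential libraries, against 78.9, 85.1 and 61.9 CPM in freshwater exponential libraries, a fall of 1.57 on the log2 scale (edgeR adjusted p = 0.000465). DN1316_c2_g1, with the plastid enzyme A4 as its hit, had 32.5, 36.0 and 20.2 CPM in marine stationary libraries, against 8.12, 5.44 and 4.74 CPM in freshwater stationary libraries. It rose by 2.27 ± 0.385 there (adjusted p = 0.00206) and by 1.78 in exponential phase, where the call was lost without any marine exponential library or without freshwater exponential 2 or 3 (edgeR adjusted p up to 0.0965). DN4195_c0_g1, a bacterial-type MsrB by its hit, averaged 12.8 ± 2.71 CPM in marine stationary and 0.448 ± 0.393 CPM in freshwater stationary libraries, with 1 freshwater library at 0 (log2 fold change 4.79 ± 1.04, edgeR adjusted p = 0.00863). DN3183_c0_g1, a plastid B2 enzyme by its hit, was not called in any comparison.

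Between growth phases, the members were called mainly in freshwater medium, as were all tested genes. From day 4 to day 6, 1 member was higher and 1 lower in stationary than in exponential phase in marine medium, where 1.63% of all tested genes were called (0.311% higher and 1.32% lower) and 6.17% of the named and well expressed ones. In freshwater medium 12 were higher and 14 lower, where 10.9% of all tested genes were called (6.46% higher and 4.42% lower) and 39.8% of the well expressed ones, with 25 of 49 members. Under scaling by library totals, which moved the median of all genes by 0.19 in freshwater and 0.13 in marine medium, freshwater calls were 18 higher and 9 lower and marine calls 2 higher and 0 lower. With libraries of a shared code stem summed there were 5 calls in freshwater (DN33_c1_g1, DN108_c0_g1, DN3176_c0_g3, DN1132_c0_g2 and DN3845_c0_g1) and 0 in marine medium. The freshwater exponential libraries enter both the salt comparison in exponential phase and the phase comparison in freshwater, so these are not separate evidence. The median log2 change of tested members was 0.01 in marine and -0.16 in freshwater medium, beside 0.01 and 0.27 over all tested genes. The change from exponential to stationary phase in marine medium minus that in freshwater medium was called positive for 7 members and negative for 8. Among all tested genes 7.17% were called (2.38% higher and 4.79% lower), and among the well expressed ones 29.5%, with 14 of 49 members. Under size factors from the median of ratios, 10 were higher and 6 lower, and under library totals 6 were higher and 9 lower.

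**Figure D4:**
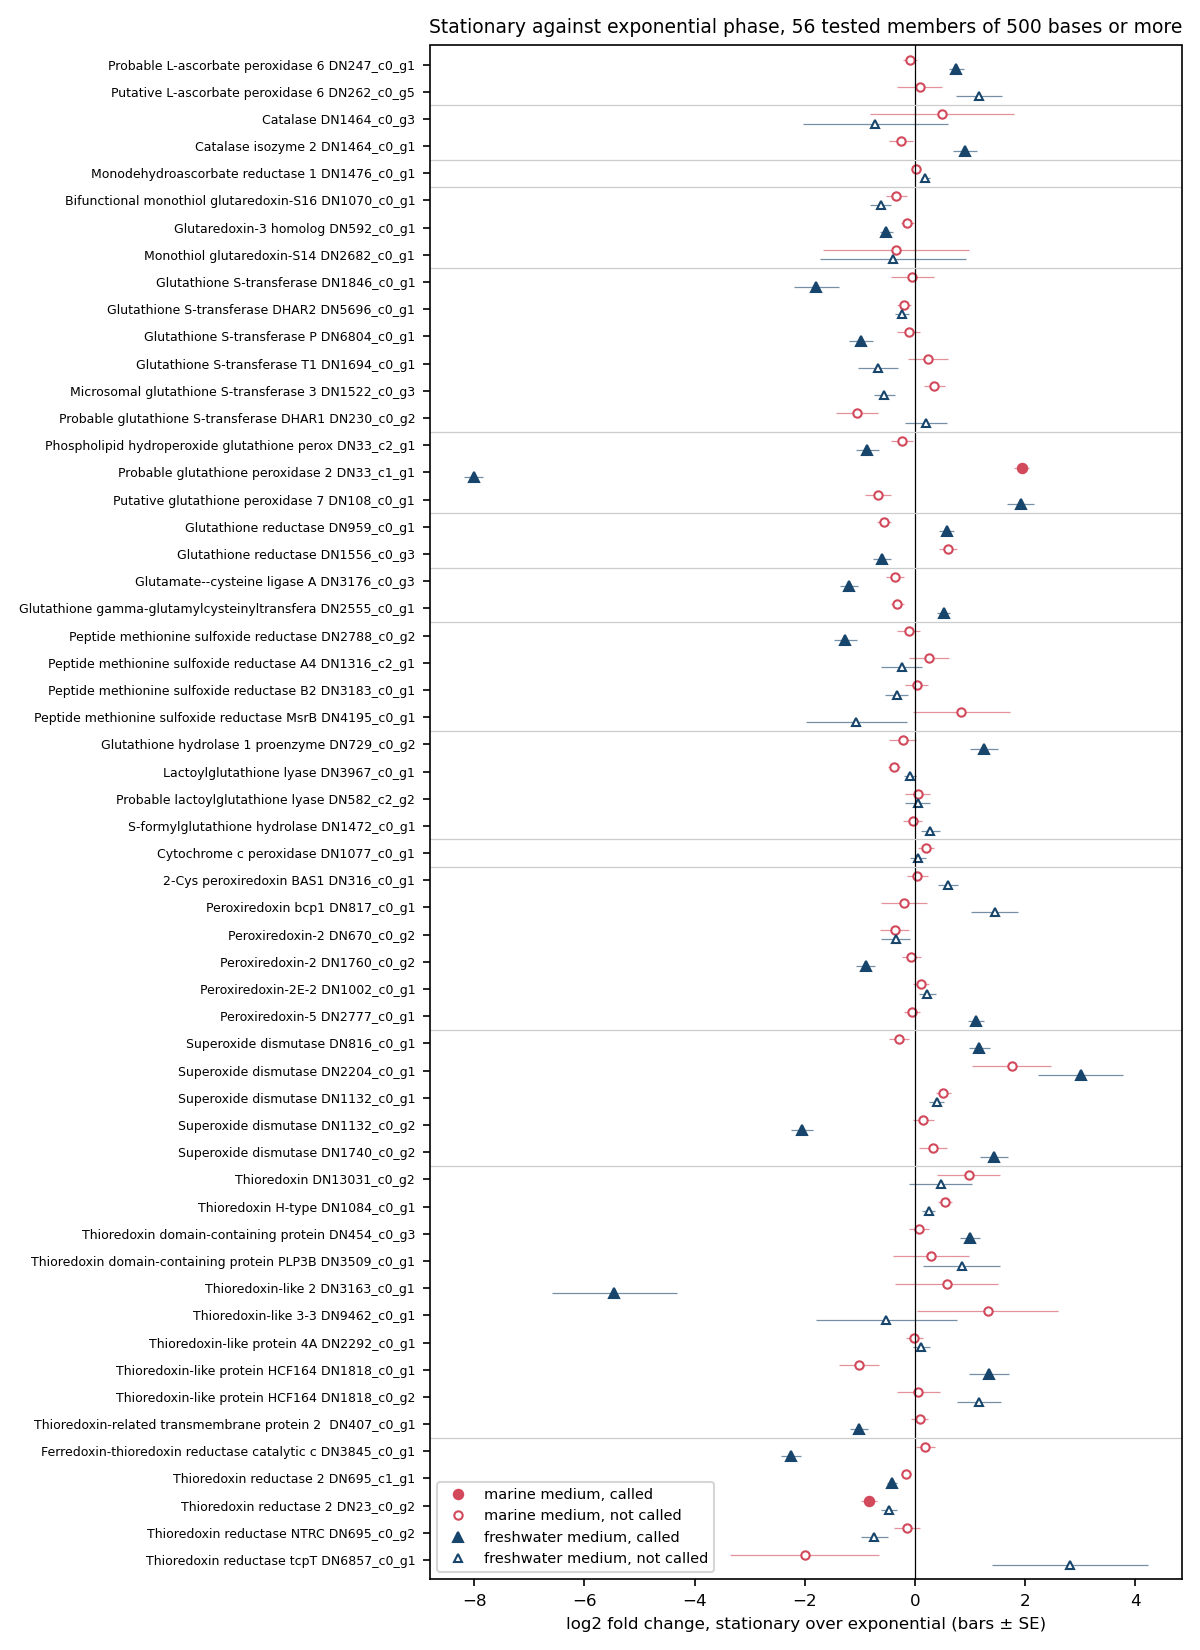
Log2 fold change of stationary over exponential phase with its standard error for the same 56 members, with circles for marine and triangles for freshwater medium and filled symbols where the member was called. Marine symbols lie between -2.0 and 1.94 with 2 filled, and freshwater symbols spread from the glutathione peroxidase 2-hit gene at -8.01 to the dismutase-hit DN2204_c0_g1 at 3.01.

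In freshwater medium the members that fell into stationary phase included DN33_c1_g1 at -8.01 ± 0.17 (edgeR adjusted p = 9.54e-09), ferredoxin-thioredoxin reductase DN3845_c0_g1 at -2.24 ± 0.18 (adjusted p = 3.45e-05) and the iron-type dismutase DN1132_c0_g2 at -2.05 ± 0.20 (adjusted p = 0.000124). Methionine sulfoxide reductase DN2788_c0_g2 fell by 1.26 (edgeR adjusted p = 0.00306) and thioredoxin-related DN407_c0_g1 by 1.02 (adjusted p = 0.0021). Glutamate--cysteine ligase DN3176_c0_g3 fell by 1.2 (edgeR adjusted p = 0.000912), but summed over its component it was at -0.49 and not called (adjusted p = 0.0777). These 6 genes averaged lower in freshwater stationary than in freshwater exponential libraries, and in marine medium only DN33_c1_g1 among them was called, with the opposite sign at 1.94 ± 0.13 (adjusted p = 0.000349). The thioredoxin-like 2-hit gene DN3163_c0_g1, at low counts, had 0, 0.371 and 0.316 CPM in freshwater stationary libraries, against 13.5, 5.32 and 13.0 CPM in freshwater exponential libraries (log2 change -5.46 ± 1.13, edgeR adjusted p = 0.0106). DN3163_c0_g1 met the freshwater count limit through the exponential libraries, where it was high, so its fall is given as a description. The marine call of DN33_c1_g1 was lost with libraries of a shared stem summed (edgeR adjusted p = 0.173).

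The members that rose into stationary phase in freshwater and kept the call when each library in turn was left out included GPX7-hit DN108_c0_g1 at 1.92 ± 0.24 (edgeR adjusted p = 0.000499), manganese-type dismutase DN816_c0_g1 at 1.17 ± 0.19 (adjusted p = 0.00257) and peroxiredoxin-5-hit DN2777_c0_g1 at 1.11 ± 0.15 (adjusted p = 0.000797). The last 2 were also higher with salt in exponential phase. Their freshwater stationary means, 77.3 and 430 CPM, lay between freshwater exponential means of 34.4 and 199 CPM and the marine means. Other rises were less steady. The dismutase-hit DN2204_c0_g1 had the highest, 3.01 (edgeR adjusted p = 0.032), and HCF164-hit DN1818_c0_g1 rose by 1.34 (adjusted p = 0.0414), and these calls were lost without any 1 of 9 and of 11 libraries (edgeR adjusted p up to 0.185 and 0.232). Catalase DN1464_c0_g1 rose by 0.90 (edgeR adjusted p = 0.0245) and glutathione hydrolase DN729_c0_g2 by 1.25 (adjusted p = 0.00922), and these calls were lost without any 1 of 9 and of 7 libraries (adjusted p up to 0.19 and 0.181). DN1740_c0_g2 rose by 1.43 (edgeR adjusted p = 0.00459), a call lost without freshwater exponential 3 (adjusted p = 0.0547). In marine medium the single called fall was thioredoxin reductase-hit DN23_c0_g2, at -0.84 (edgeR adjusted p = 0.0203), with 64.5 ± 1.44 CPM in stationary and 116 ± 4.18 CPM in exponential libraries, and it was lost without any 1 of 8 libraries (adjusted p up to 0.28).

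Summed over all 63 members, the level was 5832 ± 102 CPM in marine exponential and 11770 ± 747 CPM in freshwater exponential libraries, with 5737 ± 254 CPM in marine stationary and 5144 ± 207 CPM in freshwater stationary libraries (SD, n = 3 each). Without DN33_c1_g1 the order in exponential phase was reversed, at 5800 ± 101 CPM in marine and 4887 ± 204 CPM in freshwater libraries, with 5614 ± 249 CPM in marine stationary and 5118 ± 210 CPM in freshwater stationary libraries. Per kilobase, peroxiredoxin-5-hit DN2777_c0_g1 was the highest member in 3 groups, at 549 CPM per kilobase in marine exponential, 531 in marine stationary and 312 in freshwater stationary libraries. In freshwater exponential libraries it was DN33_c1_g1, at 2360 CPM per kilobase. Cytochrome c peroxidase DN1077_c0_g1 was second in both marine groups, at 166 CPM per kilobase in exponential and 191 in stationary phase.

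By the compartment word in the hit name, the 17 plastid members had 3 higher and 6 lower calls with salt in exponential phase and 5 higher and 8 lower in stationary phase, with median log2 fold changes of -0.69 and -0.59. The 39 tested members without such a word had 9 higher and 10 lower, and 11 higher and 7 lower, with medians of 0.14 and 0.26. Beside these counts, 20.1 and 26.3% of all tested genes were called in exponential and stationary phase, and 53.7 and 52.0% of the well expressed ones. Scaling by library totals split the called members into 24 higher and 7 lower, and 28 higher and 7 lower. These compartment sets were not counted under that scaling. The difference between the sets was not tested.

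Genes that supply the redox enzymes were read from lists of hit names with the same count rule. The lists were drawn by words in the names, so that some hold enzymes of other roles, and their shares called are to be read beside the 53.7% and 52.0% of well expressed genes called in exponential and stationary phase. NADPH supply had 5 of 9 tested genes higher and 0 lower with salt in exponential phase, and 5 higher and 1 lower in stationary phase, or 6 higher and 0 lower and 6 higher and 1 lower under scaling by library totals. Plastid glucose-6-phosphate 1-dehydrogenase-hit DN769_c0_g1, which feeds the oxidative pentose phosphate pathway, averaged 1510 ± 19.3 CPM in marine exponential and 195 ± 15.9 CPM in freshwater exponential libraries, a log2 fold change of 2.95 (edgeR adjusted p = 4.02e-06), and was not called in stationary phase.

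A list of 10 genes named for oxidases or xanthine dehydrogenase had 6 higher and 0 lower in exponential phase and 4 higher and 1 lower in stationary phase, or 7 higher and 0 lower and 6 higher and 1 lower under scaling by library totals. Among the 6 were a xanthine dehydrogenase and a bacterial-type glycolate oxidase subunit, GlcD, enzymes that can pass electrons to carriers other than oxygen. Primary amine oxidase-hit DN2445_c0_g2, of a family that releases hydrogen peroxide, was at 2.39 and 3.63 (edgeR adjusted p = 0.0011 and 0.000114). Of 10 genes of ascorbate synthesis and mannose supply, 0 were higher and 4 lower in exponential phase and 1 was higher and 1 lower in stationary phase, or 0 higher and 2 lower and 5 higher and 1 lower under scaling by library totals. GDP-mannose epimerase-hit DN1680_c0_g1 averaged 55.8 ± 0.715 CPM in marine exponential and 287 ± 95.1 CPM in freshwater exponential libraries (log2 fold change -2.36, edgeR adjusted p = 5e-05).

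Cysteine supply had 3 of 13 genes higher and 5 lower in exponential phase, and 0 higher and 8 lower in stationary phase, or 4 higher and 1 lower and 3 higher and 5 lower under scaling by library totals. A list of 8 genes named for tocopherol or its precursor homogentisate had 2 higher and 1 lower in each phase, or 4 higher and 0 lower in each under scaling by library totals. The 2 higher genes do not make tocopherol: homogentisate 1,2-dioxygenase-hit DN1493_c0_g1, whose enzyme breaks homogentisate down, was at 2.51 and 3.02, and homogentisate solanesyltransferase-hit DN775_c1_g1, of plastoquinone synthesis, was at 1.68 and 0.70 (edgeR adjusted p between 3e-06 and 0.00101).

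Of 6 genes named for alternative oxidases, diflavin flavoproteins or the xanthophyll cycle, 1 was higher and 2 lower in exponential phase and 0 higher and 3 lower in stationary phase, or 3 higher and 0 lower and 2 higher and 2 lower under scaling by library totals. The 3 lower in stationary phase were alternative oxidase-hit DN728_c0_g1, diflavin flavoprotein-hit DN172_c0_g1 at -0.61 and the xanthophyll-cycle enzyme zeaxanthin epoxidase, DN1658_c0_g1, at -1.60 (edgeR adjusted p = 0.00227 and 0.000419 for the last 2). Alternative oxidase, which passes electrons to oxygen in mitochondria, averaged 250 ± 29.2 CPM in marine stationary and 1380 ± 117 CPM in freshwater stationary libraries, a log2 fold change of -2.47 (edgeR adjusted p = 1.54e-06). Ferritin, which stores iron out of reach of peroxide, had 1 tested gene, DN2807_c1_g1, which rose by 1.29 and 1.45 (edgeR adjusted p = 0.000159 and 8.76e-05). With libraries of a shared code stem summed, the calls in exponential and stationary phase were 1 and 3 for NADPH supply, 0 and 4 for the oxidase list, 0 and 2 for ascorbate synthesis, 0 and 3 for cysteine supply, 2 and 1 for the homogentisate list, 0 and 2 for the alternative oxidase list and 0 and 1 for ferritin.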

How the data were processed

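Gene-level expected counts, deposited by the authors without normalisation, came from RSEM 1.3.2 and Bowtie on a de novo assembly, per the submitters' processing notes. A deposited table by the authors holds a signal per group (a normalised mean), log2 fold changes and adjusted p-values, and the notes name DESeq2 1.20.0. The length in bases and the E-value of each hit come from the deposited annotation. Expected counts were rounded, filtered with filterByExpr by group and scaled with TMM factors. All 12 libraries entered a single edgeR 4.0.16 fit (R 4.3.3) with 4 group means, and quasi-likelihood p-values received a Benjamini-Hochberg adjustment over 31491 genes, with a call at an adjusted p under 0.05. The 5 contrasts were salt in each phase, phase within either medium, and the salt effect in stationary minus that in exponential phase. The procedure was tested on simulated data. With 3 against 3 libraries no exact permutation p, counting both tails, is below 0.1, and p-values measure only the spread between these libraries. Levels are TMM-scaled CPM, ranked between genes only per kilobase; sums and shares of CPM count reads and are not divided by length. The members, role groups and lists were chosen with earlier results of these data known. Named members were the 6 highest and 6 lowest called per comparison with log2 CPM averaging 3 or more, and the most abundant per kilobase of each role; other members were named after their values were seen, to account for every role. The alternatives were DESeq2 1.42.0, other scalings, no filter, a replicate block, compared libraries only, each library left out, shared code stems summed, assembly components summed, genes of both media only and a stricter E-value of 1e-20; for the supply lists, library totals and summed stems were added after the data were seen. Tables and figures used Python 3.11.15, pandas 2.3.3 and matplotlib 3.10.9. No sequences of members were in the files used here, so none are printed.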

Additional observations from a re-analysis of the deposited data

Results flagged for a closer look

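For 15 members, 14 of them with a log2 CPM that averaged 3 or more, the effect of salt in stationary phase differed from that in exponential phase by a test of the difference itself (edgeR's quasi-likelihood test, Benjamini-Hochberg adjusted p under 0.05, n = 3 libraries a group). The values below are the log2 effect in stationary phase minus that in exponential phase.

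The difference was positive for 7 of them. It was 9.95 for the glutathione peroxidase 2-hit gene DN33_c1_g1, 2.43 for ferredoxin-thioredoxin reductase DN3845_c0_g1, 2.21 for the iron-type superoxide dismutase DN1132_c0_g2 and 1.2 for the glutathione reductase fragment DN1556_c0_g3. It was 1.15 for methionine sulfoxide reductase DN2788_c0_g2 and 1.11 for the thioredoxin-related transmembrane protein-hit gene DN407_c0_g1. It was 6.03 for the thioredoxin-like 2-hit gene DN3163_c0_g1, which had few counts and met the freshwater count limit through its exponential libraries. That call was lost without any 1 of 10 libraries (edgeR adjusted p up to 0.121). The call of DN2788_c0_g2 was lost without any 1 of 10 libraries (edgeR adjusted p up to 0.181), that of DN1556_c0_g3 without marine stationary 1 or 2 or freshwater stationary 1 (up to 0.0884), and that of DN407_c0_g1 without marine stationary 2 or freshwater stationary 1 (up to 0.0623).

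The difference was negative for the other 8. It was -2.59 for the glutathione peroxidase 7-hit gene DN108_c0_g1, -2.35 for the thioredoxin-like HCF164-hit gene DN1818_c0_g1, -1.47 for glutathione hydrolase 1-hit DN729_c0_g2 and -1.45 for the manganese-type superoxide dismutase DN816_c0_g1. It was -1.15 for peroxiredoxin-5-hit DN2777_c0_g1, -1.14 for glutathione reductase DN959_c0_g1, -0.85 for phytochelatin synthase-hit DN2555_c0_g1 and -0.84 for ascorbate peroxidase-hit DN247_c0_g1. Of these, DN108_c0_g1 alone kept its call when each library in turn was left out (edgeR adjusted p up to 0.0164). The other 7 lost it without any 1 of 6 to 11 libraries (edgeR adjusted p up to 0.555). With libraries of a shared code stem summed, the call of DN33_c1_g1 alone was left among all 15.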

How the results depend on the processing

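The call counts of 30 and 34 members with salt, 2 and 26 between phases in marine and freshwater medium, and 15 for the difference between the salt effects depended on the libraries and the tool. With libraries of a shared code stem summed they were 7, 11, 0, 5 and 1, on fewer samples, and the 0 in marine medium stood beside 4 members with an unadjusted p under 0.05. DESeq2 called 7 in marine medium and 25 for the difference. The marine phase count was 4 with the compared libraries only, 1 with components summed, 4 with genes of both media only and 1 with an E-value of at most 1e-20. With each library left out, the counts ranged over 23 to 31 and 22 to 33 for salt, 1 to 3 and 15 to 26 for phase, and 6 to 17 for the difference, with a move of over 1.5 times in 0, 1, 7, 2 and 9 of the 12 fits. Kept throughout were 21 and 21 salt calls, 1 and 11 phase calls and 4 differences. Same-numbered libraries did not deviate together over all tested genes (18 pairs, r between -0.053 and 0.036). This cannot exclude a pairing, since many of the tested genes had low counts. The replicate block gave 30, 29, 3, 22 and 14 calls. For members named by the rule, 2543 values kept their side of the threshold, 290 lost the call and 65 gained it. Of the values of these named members called in the main fit, 0 reversed direction. Among the other members, the exponential salt call of thioredoxin reductase-hit DN695_c1_g1 did reverse, from -0.30 to a called 0.33 under scaling by library totals. Changes of direction among values not called were not counted. Members whose log2 CPM averaged under 3 cannot show small changes at this depth.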

Other observations

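The 44 genes with an antioxidant or thiol name and 15 or more counts in freshwater medium only had best hits in animals for 20, in green plants or algae for 10, in bacteria for 10, in fungi for 2 and in other eukaryotes for 2. DN4964_c0_g1, with a hit to a cyanobacterial peroxiredoxin, sll1621, had 0 counts over the 6 marine libraries and 5218 over the 6 freshwater libraries. A copper/zinc superoxide dismutase-hit gene, DN7363_c0_g1, had 0 marine counts and 327 freshwater counts, while the 5 superoxide dismutase members were of the manganese or iron type by their hits. Of the 3 genes seen in marine medium only, 2 had hits to bacterial catalase-peroxidases and 1 had an animal best hit. These genes were chosen after their values were seen, and whether they belong to the alga was not tested.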
